A study of Homo sapiens with 3 samples.

Results

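Myeloma cells carry a set of surface proteins that are used to identify them or that antibodies, CAR T cells and other immune therapies bind, and 10 genes of this kind were followed here. The genes were chosen by symbol from a list: SDC1 (CD138), CD38, TNFRSF17 (BCMA), SLAMF7, CD28, BSG (CD147), CD47, CD59, CD74 and LAMP5. They are 10 of the 43913 gene names in the 3 count tables. The transcripts of 9 of the 10 were listed in the MM.1S monoculture, 9 in the HS-5 monoculture and 10 in the coculture, since LAMP5 was listed only in the coculture.

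The study asked how myeloma and stromal cells affect each other, with NF-κB in view. Single cells were captured by Drop-seq, in which cells and barcoded beads meet in droplets and each captured transcript is counted once through its unique molecular identifier (UMI). A single library each was made from MM.1S, a human multiple myeloma B lymphoblast line, grown alone, from HS-5, a human bone marrow stromal line, grown alone, and from both lines after 4 h of coculture. No agent was added in any of the cultures, and each cell type is represented by 1 line. With 1 library per condition no test of a culture effect can be made and no p-value is given: culture and library cannot be told apart. All intervals below are exact 95% intervals for counting error only.

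The monocultures gave 3947 MM.1S and 3732 HS-5 cells with at least 200 genes, and the coculture gave 3856. Coculture cells were assigned to a line by 80 MM.1S and 231 HS-5 genes that differed at least 50-fold between the monocultures, with the 10 antigen genes left out of these lists. This gave 1641 MM.1S cells and 2106 HS-5 cells, and 109 mixed cells were set aside. Median depth per cell was 2201 UMIs in MM.1S monoculture and 669 in MM.1S coculture cells, against 971.5 and 957 in HS-5 cells. Judged by the line genes, RNA of the other line made up 1.72% of UMIs in MM.1S coculture cells and 0.789% in HS-5 coculture cells. The 3 libraries shared between 39 and 76 cell barcodes pairwise. The summed level of 14 myeloma marker genes was 56062 CPM (UMIs per 1000000 UMIs of the group) in MM.1S monoculture and 27959 CPM in MM.1S coculture cells. It was below 258 CPM in HS-5 cells. The immunoglobulin gene IGLC2 alone made up 36552 and 18591 CPM of the MM.1S sums. Most genes of the list were lower in MM.1S coculture cells, but PRDM1 was 36.8 and 153 CPM and POU2AF1 72.3 and 151 CPM. CD27 was at 0.192 CPM in MM.1S monoculture and at 0 UMIs in MM.1S coculture cells. The summed level of 14 stromal marker genes was 5331 and 4596 CPM in HS-5 cells alone and in coculture, and it also moved with culture in MM.1S cells, from 881 CPM alone to 2370 CPM in coculture, of which FN1, the fibronectin gene, made up 810 and 2222 CPM. The marker lists of T and NK cells and of monocytes summed to at most 6.45 CPM in any group. The red cell list summed to 14.3 CPM in MM.1S monoculture, 10.5 CPM in MM.1S coculture cells and 0 in HS-5 cells. Most of it was the hemoglobin gene HBA1, with 137 and 14 UMIs in the MM.1S groups.

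These proteins do different work on the plasma cell. Syndecan-1, encoded by SDC1, is a heparan sulfate proteoglycan that binds growth factors and matrix and is the classical plasma cell marker. CD38 is an ectoenzyme that consumes NAD, BCMA receives the survival factors APRIL and BAFF, SLAMF7 is a SLAM family receptor, and CD28 is a costimulatory receptor that plasma cells share with T cells. Basigin (BSG) escorts lactate transporters to the membrane, CD47 signals to the phagocyte receptor SIRPα, CD59 blocks the terminal step of the complement cascade, CD74 is the invariant chain of MHC class II and a receptor for MIF, and LAMP5 belongs to the lysosome-associated membrane proteins.

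The promoters of the antigens that differed most between MM.1S cultures, SDC1 and CD74, are shown because both genes passed 2-fold there. The sequences are RefSeq promoters on GRCh38.p14, from 250 bases before to 50 bases after the start of a transcript, 5′ to 3′ on the gene's strand. The SDC1 window is chr2:20225426-20225725 on the minus strand and the CD74 window is chr5:150412861-150413160 on the minus strand. Capitals mark a match to one of the motifs searched.
SDC1: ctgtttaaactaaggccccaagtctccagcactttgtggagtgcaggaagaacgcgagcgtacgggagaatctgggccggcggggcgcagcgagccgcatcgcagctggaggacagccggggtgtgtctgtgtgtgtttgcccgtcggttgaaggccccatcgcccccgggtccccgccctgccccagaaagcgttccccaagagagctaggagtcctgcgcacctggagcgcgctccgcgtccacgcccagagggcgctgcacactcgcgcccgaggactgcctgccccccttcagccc
CD74: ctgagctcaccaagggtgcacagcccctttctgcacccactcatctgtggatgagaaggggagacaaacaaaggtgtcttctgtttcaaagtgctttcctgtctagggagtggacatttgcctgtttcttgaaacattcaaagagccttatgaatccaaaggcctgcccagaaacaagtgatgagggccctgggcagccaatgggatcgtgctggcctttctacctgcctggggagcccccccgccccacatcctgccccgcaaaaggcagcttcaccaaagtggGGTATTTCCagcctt
Of the 10 antigens, 8 had a promoter in the RefSeq table. Both strands were searched for an NF-κB motif (GGNNTTTCC), a STAT motif (TTCNNNGAA), the core of interferon regulatory factor sites (AANNGAAA) and a TATA box (TATAAA). The NF-κB letters were found only in the CD74 promoter among these 8 antigens, 35 bases after the start, and were present in 6.26% of 35116 promoters. The STAT letters were found in promoters of CD59 and LAMP5 and in 7.66% of all promoters. The TATA letters stood in a promoter of BSG and in 11.5% of all promoters, and the interferon regulatory factor core was in promoters of CD28, CD38 and CD59 and in 22.8% of all promoters. None of these motifs was in the SDC1 window shown, which held 27 CpG dinucleotides, against 3 in the CD74 window and a median of 14 over all promoters. The letters were set after longer forms of the NF-κB and interferon motifs had been searched, with the longer NF-κB form also in the CD74 promoter and the longer interferon form in none of the 8 antigens. No binding data were used here, so these matches describe sequence only.

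In the comparison of both monocultures, 4 antigens marked the myeloma line at the RNA level and 3 did not. CD38, TNFRSF17, CD28 and CD74 had at most 9 UMIs each in HS-5, and BSG was present in both lines but higher in MM.1S. SDC1 and CD59 were higher in the stromal line, and CD47 was of like size in both. SLAMF7 and LAMP5 were at or near the floor everywhere.

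CD38 (GRCh38 chromosome 4, 15778275 to 15853230, plus strand) had 1302 UMIs in MM.1S monoculture, 125 CPM with an interval from 118 to 132. In HS-5 monoculture it had 6 UMIs, 0.977 CPM. The ratio of both levels was 128, with a counting interval from 58.5 to 349. TNFRSF17 (chromosome 16, 11965107 to 11968068, plus strand) had 1153 UMIs in MM.1S, 111 CPM, and 3 UMIs in HS-5 monoculture, 0.488 CPM, so that the interval of the ratio ran from 77.2 to 1099. This short gene overlaps NPIPB2 on the opposite strand, which had 168 UMIs in MM.1S monoculture. Whether the counting used strand is not given in the sources used here.

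CD28 (chromosome 2, 203706475 to 203738912, plus strand), better known from T cells, was measured at 63.5 CPM in MM.1S monoculture from 663 UMIs and at 1.30 CPM in HS-5 monoculture from 8 UMIs. CD74 (chromosome 5, 150401637 to 150412929, minus strand) had 419 UMIs in MM.1S, 40.2 CPM, and 9 UMIs in HS-5, 1.47 CPM. The genes that CD74 serves were almost silent in the myeloma line: the 8 class II genes of the list, HLA-DRA among them, each had a level of at most 2.11 CPM in MM.1S monoculture. CD74 was thus measured in MM.1S cells without a matching level of HLA class II transcripts.

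SDC1 (chromosome 2, 20200797 to 20225433, minus strand) had 398 UMIs in MM.1S monoculture, 38.1 CPM with an interval from 34.5 to 42.1. The HS-5 monoculture had 827 UMIs, 135 CPM with an interval from 126 to 144, 3.53 times the MM.1S level. The transcript of the classical plasma cell marker was therefore lower in the myeloma monoculture than in the stromal one. CD59 (chromosome 11, 33703010 to 33736491, minus strand) was 272 CPM in MM.1S and 736 CPM in HS-5, 2.70 times higher in the stromal line. CD47 (chromosome 3, 108043094 to 108091862, minus strand) was 247 CPM in MM.1S and 309 CPM in HS-5. BSG (chromosome 19, 571277 to 583493, plus strand) was 3.64 times higher in MM.1S, with 110 CPM against 30.1 CPM. BSG also overlaps an antisense gene, AC009005.1, with 88 UMIs in MM.1S monoculture.

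The last pair of antigens gave next to nothing to measure. SLAMF7 (chromosome 1, 160739057 to 160754821, plus strand), the target of elotuzumab, had 21 UMIs in MM.1S monoculture, 4 in MM.1S coculture, 7 in HS-5 monoculture and 0 in HS-5 coculture cells. Its level of 2.01 CPM in MM.1S monoculture and 1.14 CPM in HS-5 monoculture had overlapping intervals. LAMP5 (chromosome 20, 9514358 to 9530524, plus strand) had 1 UMI, in an HS-5 coculture cell. Read as up to 3 counts, 0 UMIs of LAMP5 allow 0.288 CPM in MM.1S monoculture and 2.26 CPM in MM.1S coculture cells. The exact intervals reach 0.354 and 2.78 CPM. The antisense gene LAMP5-AS1 had 18 UMIs in MM.1S monoculture.

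Counted over the 8 antigens with a mean of at least 10 CPM, MM.1S exceeded HS-5 monoculture at least 2-fold in 5 and fell below it at least 2-fold in 2. Of all 8734 genes tested in the same way, 15.3% were higher and 38.1% lower, 53.5% in all. The median gene stood at a log2 ratio of -0.56. With this shift taken off, the log2 ratios were -1.23 for SDC1, -0.87 for CD59 and 0.24 for CD47. The 5 antigens higher in MM.1S then lay further above 0.

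Between coculture and monoculture the antigens of MM.1S cells differed in both directions. SDC1 was higher, CD28 and CD47 were higher by less than 2-fold, and CD38, TNFRSF17, BSG and CD59 were lower by less than 2-fold. CD74 was lower by over 2-fold. With a stricter filter on cells, which sets an upper limit on genes and keeps cells under 5% mitochondrial UMIs, CD28 also passed 2-fold, at a log2 ratio of 1.09. Of 8 antigens with a mean of at least 10 CPM, 1 was at least 2-fold higher and 1 at least 2-fold lower, against 19% and 5.82% of 7838 genes tested, 24.8% in all. A share of 2 in 8 is near that background. The median of all genes was shifted to a log2 ratio of 0.24. RNA composition also differed between these groups, with 6.82% mitochondrial and 16.9% ribosomal protein UMIs in monoculture and 4.05 and 11.6% in coculture. Scaled without these genes, the log2 ratios were 1.52 for SDC1 and -1.40 for CD74.

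SDC1 was measured at 124 CPM in MM.1S coculture cells, from 165 UMIs, with an interval from 106 to 145. This is 3.26 times the monoculture level (interval 2.70 to 3.92), a log2 ratio of 1.68. After the median shift of all genes is taken off, 1.44 remained. The ratio lay at the 94.4th percentile of all genes tested. With this, MM.1S cells in coculture stood at the SDC1 level of the HS-5 cells, which were at 135 CPM alone and 126 CPM in coculture.

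Because HS-5 cells carry SDC1, the measurement was set beside the HS-5 RNA in each MM.1S cell. The cells were grouped by the HS-5 share of their line-gene UMIs. In MM.1S coculture cells with a share under 2% SDC1 was 118 CPM, in those with 2 to 5% it was 104 CPM, and in those with 5 to 20% it was 160 CPM. The intervals overlapped. Subtracting the estimated HS-5 RNA left the log2 ratio at 1.68. This subtraction could hardly move it, since SDC1 was 124 CPM in MM.1S and 126 CPM in HS-5 coculture cells. The higher SDC1 level was also measured in the cells with a share under 2%. A cell held a median of 32 line-gene UMIs, and at that number a share under 2% means no HS-5 line-gene UMI. The grouping is therefore coarse and cannot show that these cells held less HS-5 RNA.

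Depth differed between the cultures, and SDC1 was also read in 4 equal groups of cells ordered by depth within each culture. The groups ran from 638 to 65136 UMIs per cell in monoculture and from 265 to 5831 in coculture. They were therefore not matched in depth. In MM.1S monoculture SDC1 was 28.5 CPM in the depth group with the fewest UMIs and 43.1 CPM in that with the most. In coculture each of the 4 depth groups was between 105 and 153 CPM. No interval of a coculture depth group overlapped one of monoculture. Against the shallowest monoculture depth group alone, an alternative chosen after seeing the data, the log2 ratio was 2.09. In HS-5 monoculture the deepest group had 111 CPM and the other depth groups 165 to 175 CPM.

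CD74 differed in the other direction, with 419 UMIs and 40.2 CPM in monoculture and 22 UMIs and 16.6 CPM in coculture, a ratio of 0.413 with an interval from 0.256 to 0.633. Its log2 ratio of -1.23 was at the 3.48th percentile of all genes. CD74 also varied with depth within the monoculture, from 70.3 CPM in the shallowest depth group to 32.0 CPM in the third. In coculture CD74 was 36.5 CPM in the shallowest depth group, from 6 UMIs, and between 9.19 and 16.6 CPM in the other depth groups. The interval of that shallowest group overlapped that of the shallowest monoculture cells. These 2 groups spanned 265 to 484 and 638 to 1603 UMIs per cell, and the part of depth was not tested.

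CD28 differed by a smaller amount, with 63.5 CPM in monoculture and 115 CPM in coculture (663 and 152 UMIs), a log2 ratio of 0.84 with an interval from 0.59 to 1.11. CD47 was 247 CPM in monoculture and 372 CPM in coculture (2576 and 494 UMIs), a log2 ratio of 0.59 with an interval from 0.45 to 0.73. Genes with longer annotated transcripts were in general higher in coculture: over 4 equal groups by length, the median log2 ratio of all genes was -0.13 in the shortest and 0.58 in the longest. CD28 and CD38 belong to the longest group, SDC1 and CD47 to the third. Relative to the median of their own length group, the log2 ratios were 1.30 for SDC1, 0.26 for CD28, 0.21 for CD47 and -1.12 for CD38, so that CD38 passed 2-fold on this scale. The part of transcript length in these ratios was not tested.

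The therapeutic targets CD38 and BCMA were both somewhat lower. CD38 was 85.1 CPM in MM.1S coculture cells, from 113 UMIs, 0.682 times the monoculture level with an interval from 0.558 to 0.827. TNFRSF17 was 82.1 CPM, from 109 UMIs, 0.743 times the monoculture level with an interval from 0.605 to 0.905. MM.1S coculture cells were also grouped by the HS-5 share of their line-gene UMIs, of which a cell held a median of 32. CD38 was 79.9, 72.4 and 110 CPM at a share under 2%, of 2 to 5% and of 5 to 20%, with overlapping intervals. TNFRSF17 differed along this share, with 108 CPM under 2%, 77.2 CPM at 2 to 5% and 44.4 CPM at 5 to 20%. In the cells under 2% its log2 ratio to monoculture was -0.04, so its lower level was not seen at that measured share. A share from so few UMIs is coarse, and the part of HS-5 RNA in these differences was not tested.

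BSG was 73.1 CPM in coculture against 110 CPM in monoculture, 0.666 times (interval 0.536 to 0.820), and CD59 was 203 CPM against 272 CPM, 0.747 times (interval 0.657 to 0.847). CD59 is higher in HS-5, and with the HS-5 RNA subtracted its log2 ratio was -0.50 in place of -0.42. Both levels were lower while SDC1, CD28 and CD47 were higher.

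In HS-5 cells the antigens with a measurable level differed little between cultures. SDC1 was 135 CPM alone and 126 CPM in coculture (827 and 313 UMIs), a ratio of 0.937 with an interval from 0.820 to 1.07. BSG was 30.1 and 31.0 CPM, CD47 309 and 364 CPM, and CD59 736 and 806 CPM. The log2 ratio was 0.23 for CD47 and 0.13 for CD59, with intervals above 0. Of 4 antigens with a mean of at least 10 CPM, 0 were 2-fold different, against 3.02% of 8815 genes tested, 1.19% higher and 1.83% lower. No replicate test was possible here. CD74 had 9 UMIs in HS-5 monoculture, 7 of them in 1 cell, and 0 in HS-5 coculture cells.

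The partners of these proteins were counted in the same way in MM.1S cells, from lists that hold their ligands, chaperones and enzymes. Over all genes tested 19% were at least 2-fold higher and 5.82% lower, and the lists hold too few genes to be set apart from these shares. Around basigin 8 of 8 partners passed the minimum level, 4 were at least 2-fold higher and 1 was lower. The amino acid transporter SLC7A5 had the highest ratio, with 12.7 CPM in monoculture and 76.1 CPM in coculture, and the cyclophilin PPIB the lowest, a log2 ratio of -1.47. The lactate transporter genes SLC16A1 and SLC16A3, whose products basigin escorts, were higher in coculture while BSG itself was lower. SLC16A1 was 61.3 CPM in monoculture and 138 CPM in coculture, and SLC16A3 had a log2 ratio of 1.97. The related transporter gene SLC16A7 was 5.27 and 22.6 CPM, and EMB, which encodes the basigin relative embigin, was 190 and 139 CPM. In HS-5 cells these 3 transporters had log2 ratios of -0.29, -0.52 and -0.27.

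Around BCMA, 5 of 10 genes passed the minimum level in MM.1S, 0 were 2-fold higher and 1 was lower, against 19 and 5.82% of all genes. The subunits of γ-secretase, which sheds BCMA from the membrane, differed among themselves, with log2 ratios of 0.85 for APH1A and -1.23 for PSENEN. TNFRSF13B, which encodes the related receptor TACI, was 117 CPM in monoculture and 161 CPM in coculture. The BCMA ligand genes TNFSF13 and TNFSF13B had at most 17 UMIs in MM.1S monoculture.

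Around syndecan-1, 3 of 12 genes passed the minimum level in MM.1S and 0 were 2-fold different, with 0.81 for EXTL2, a heparan sulfate glycosyltransferase gene, and -0.84 for SDCBP, which encodes syntenin. Another syndecan, SDC4, had 1 UMI in MM.1S monoculture and 1089 in HS-5 monoculture. Around CD38, 2 of 8 genes passed and 0 were 2-fold different, with 0.52 for NAMPT of NAD synthesis and -0.88 for ADA, adenosine deaminase. None of 8 SLAM family and adaptor genes reached the minimum level in MM.1S. Of the CD28 list, 4 of 8 passed, 1 was higher and 0 were lower, near the 19 and 5.82% of all genes. The signalling gene VAV1 had a log2 ratio of 1.78 and CD86, which encodes a CD28 ligand, one of -0.77.

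Among CD47 partners 2 of 7 passed, 1 was higher and 0 lower, too few to read against the 19 and 5.82% of all genes. SIRPA, which encodes the CD47 receptor, had 39 UMIs and 3.74 CPM in monoculture and 23 UMIs and 17.3 CPM in coculture, and CALR, the gene of the prophagocytic protein calreticulin, had a log2 ratio of -0.63. Of 6 complement regulators 4 passed, 1 was higher and 1 lower, with the same shares of all genes. The membrane regulator CD55 was 83.1 CPM in monoculture and 33.9 CPM in coculture, a log2 ratio of -1.27. CD59 and CD55 were thus both lower in MM.1S coculture cells.

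Of the CD74 and class II list 14 of 15 genes were found, 4 passed, 1 was higher and 0 lower, near the 19 and 5.82% of all genes, with log2 ratios of 1.61 for CD44, the coreceptor of CD74, and -0.10 for the protease gene SPPL2A. In the LAMP family 4 of 5 genes were found, 3 passed and 0 were 2-fold different, with 0.15 for LAMP1 and -0.41 for LAMP2. Of 23 other antigens followed in myeloma, 9 passed, 2 were higher and 0 lower, which is near the 19% higher and 5.82% lower of all genes. TFRC, the transferrin receptor gene, had the highest log2 ratio, 1.79, and ITGB7, an integrin chain, the lowest, -0.82. The targets GPRC5D and FCRL5 had 42 and 38 UMIs in MM.1S monoculture, below the minimum level.

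The share of antigen-positive cells was compared after cells were thinned to 1000 UMIs, because a deeper cell shows more genes. Cells with fewer UMIs were left out. This left 3870 of 3947 MM.1S monoculture cells and 378 of 1641 MM.1S coculture cells. In HS-5 it left 1802 of 3732 monoculture cells and 1001 of 2106 coculture cells. The MM.1S coculture cells kept all lay in the deepest of the 4 coculture depth groups, where SDC1 was 105 CPM against 124 CPM over all such cells. At this depth a SDC1 UMI was seen in 3.59% of MM.1S monoculture cells and 8.20% of MM.1S coculture cells, with intervals from 3.03 to 4.23% and from 5.64 to 11.4%. Without thinning the shares were 9.10 and 9.51%, since coculture cells held fewer UMIs. At 500 UMIs, which kept 1197 MM.1S coculture cells, a SDC1 UMI was seen in 63 of 3947 and 72 of 1197 cells, a log2 ratio of 1.91 against 1.19 at 1000 UMIs. In HS-5 cells SDC1 was seen in 13.9% alone and 10.6% in coculture.

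CD38 was seen in 11.4% of MM.1S monoculture and 7.94% of MM.1S coculture cells at 1000 UMIs, against 2 of 1802 HS-5 monoculture and 2 of 1001 HS-5 coculture cells, which give the background. TNFRSF17 was seen in 9.02 and 7.94% of MM.1S cells and in at most 0.0555% of HS-5 cells. CD28 was seen in 6.67 and 10.3%, and CD74 in 4.29 and 1.32%. CD47 UMIs were found in 20.7% of MM.1S monoculture and 32.8% of MM.1S coculture cells, and without thinning in 43.0 and 23.6%. BSG was seen in 9.92 and 5.56%, and CD59 in 23.6 and 18.5%. The intervals of both MM.1S cultures did not overlap for SDC1, BSG, CD47 and CD74 at 1000 UMIs. This set depends on the depth chosen. At 500 UMIs the intervals stood apart for SDC1, CD47 and CD74, and also for TNFRSF17 (4.86 and 2.92%), CD28 (2.76 and 4.93%) and CD59 (13.1 and 8.35%), while those of BSG (5.45 and 3.68%) overlapped.

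These shares describe detection, not the share of cells that carry the protein. In MM.1S monoculture each share lay close to what a Poisson distribution with the same mean gives, for example 23.6% against 24.2% for CD59 and 9.02% against 9.45% for TNFRSF17. The ratio of variance to mean over cells was between 0.996 and 1.12 for the 8 antigens. With so few antigen UMIs per cell, such values can lie near Poisson even where a part of the cells is negative. They cannot tell whether any antigen had a separate negative population.

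Whether antigens occurred together in the same cells bears on combinations of targets, and 28 pairs of the 8 antigens were counted in MM.1S monoculture cells. At 1000 UMIs per cell 16 pairs were seen together more often than the product of their shares gives and 12 less often, with a median ratio of 1.04 and a range from 0.792 to 1.44. The split of pairs depends on the random thinning, and another seed gave more pairs above independence. The interval of the ratio held 1 in all 28 pairs, which does not show that the antigens are independent. CD38 and TNFRSF17 were found together in 52 cells where 40.0 were expected, with an interval of the ratio from 0.972 to 1.71. SDC1 and CD38 met in 22 cells where 15.9 were expected, and CD38 and CD59 in 125 where 104 were expected. The lowest ratio was that of CD59 and CD74, with 31 cells against 39.1.

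Without thinning 27 of the 28 pairs exceeded 1, and 21 intervals lay above 1. Depth differs between cells in these unthinned counts. At 2000 UMIs, in 2268 cells, 17 pairs exceeded 1 and 1 interval did, that of BSG and CD74. In MM.1S coculture cells at 500 UMIs, in 1197 cells, 13 pairs exceeded 1 and only the interval of CD28 and CD47 lay above 1, with 18 cells against 10.3 expected.

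The number of antigens seen per cell was close to what independent shares give. At 1000 UMIs 38.6% of MM.1S monoculture cells showed none of the 8 antigens, 39.3% showed 1, 17.1% showed 2 and 4.44% showed 3, where independence gives 37.9, 40.2, 17.4 and 3.98%. At least 1 of SDC1, CD38 and TNFRSF17 was seen in 21.7% of MM.1S monoculture cells (expected 22.3%) and in 21.7% of MM.1S coculture cells. The coculture value had an interval from 17.6 to 26.2%, from 378 cells. At 2000 UMIs the shares were 39.8% in monoculture and 36% in 50 coculture cells. SDC1 was higher and CD38 and TNFRSF17 were lower in coculture, and the part of each in this share was not tested. In HS-5 monoculture the share at 1000 UMIs was 14.1%, nearly all from SDC1.

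Within the MM.1S monoculture, antigen levels were read against other programmes of the same cells, grouped by the UMIs of a gene list at 1000 UMIs per cell. CD38 was lower in cells with more G2 and M phase transcripts. It was 139 CPM in 2197 cells with none, 125 CPM in 665 cells with 1 and 102 CPM in 1008 cells with 2 or more. The intervals of the first and last group, 129 to 150 and 91.6 to 113 CPM, did not overlap. CD28 was 74.7, 54.3 and 51.2 CPM in these groups, and SDC1 32.9, 44.0 and 42.6 CPM. Median depth also moved with this list, from 1992 to 3017.5 UMIs per cell, and its part in these differences was not tested. Over the depth groups of monoculture cells CD38 was between 122 and 128 CPM, CD28 between 59.8 and 70.3 CPM and SDC1 between 28.5 and 43.1 CPM.

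With a list of 20 plasma cell secretion genes, CD38 went the other way, with 107, 128 and 143 CPM in the low, middle and high groups. CD74 was 31.4, 43.2 and 45.6 CPM, and CD59 265, 256 and 302 CPM. With interferon response genes, CD28 was 58.0, 50.4 and 74.1 CPM and CD74 32.5, 32.2 and 48.1 CPM in cells with 0, 1 and more such UMIs, while TNFRSF17 was 122, 124 and 96.8 CPM. The intervals of the lowest and highest groups stood apart for CD38, CD59 and CD74 with the secretion list, and for CD74 and TNFRSF17 with the interferon list. Median depth was 2302 and 2096 UMIs in the lowest and highest secretion groups and 2354 and 2088 in the interferon groups, and its part was not tested. In the coculture the counts were too few to read such differences.

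Over the 4 groups of cells, the gene with the profile closest to SDC1 was ADSL, an enzyme of purine synthesis, with 15.6 CPM in MM.1S alone, 52.0 CPM in MM.1S in coculture and 54.9 CPM in HS-5 alone. The distance was taken between log2 levels centred on their mean, over 4840 genes and only 4 groups. The next was the ribosomal protein gene RPL9. Closest to CD38 were LGMN and MFNG, to TNFRSF17 BCHE and PIM2, to CD28 LRRC26 and CRYBB1, and to BSG C1QBP and SSR2. Closest to CD47 were UBA2 and ATP2C1, to CD59 BBX and CDCA3, and to CD74 LBH and ST8SIA4.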

How the data were processed

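The deposited tables held unnormalized UMI counts, whole numbers with genes in rows and cell barcodes in columns, which the authors made from Drop-seq reads of 1 library per condition. The submitters' processing notes name Cell Ranger 3.0.2, UMI-tools 1.0.0, STAR 2.5.3a, Subread, featureCounts 1.6.4, SAMtools 1.9 and GRCh38, without saying which step used which. The tables held 10433182, 6143448 and 3981392 UMIs for MM.1S, HS-5 and coculture.

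Cells with at least 200 genes were kept. Coculture cells under 0.2 HS-5 share of line-gene UMIs (genes of at least 50 CPM that differed 50-fold) were MM.1S, those over 0.8 HS-5, and those between were left out as possible doublets. No doublet caller was run, and pairs of cells of the same line stay in. UMIs were summed per line and culture and scaled to CPM, with log2 ratios at a pseudocount of 1. A 2-fold difference was called where the 2 groups averaged 10 CPM or more. Thinning used a fixed random seed. Intervals were Poisson for levels, Clopper-Pearson for shares and conditional binomial for ratios. A count of 0 was read as up to 3 counts. Python 3.11.15 and scipy 1.17.1 were used, and the steps were tested on simulated data. Coordinates are from GENCODE 29.

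The antigens and gene lists were chosen with earlier results of these data known. Named are the 10 antigens, the highest and lowest partner of each list in MM.1S and the 2 nearest profiles, and further partners were named after their values were seen. The value of 1 partner that this rule names is not reported here. Alternatives were other pseudocounts, scalings, cell filters, minimum levels, line-gene limits and depths, and subtraction of free RNA.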

Additional observations from a re-analysis of the deposited data

Results flagged for a closer look

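For 3 antigens the sign of the log2 ratio of coculture over monoculture was opposite in the 2 lines. SDC1 had 1.68 in MM.1S and -0.09 in HS-5, BSG -0.58 and 0.04, and CD59 -0.42 and 0.13. With 1 library per condition the difference between the lines was not tested, and the counting intervals of SDC1 and BSG in HS-5 include 0.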

How the results depend on the processing

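Of 45 recomputed counts of antigens or pairs, 42 stayed within 1.5 times the reported value. At 1.5-fold in place of 2-fold, 4 antigens differed between MM.1S cultures, with CD28 and CD47 added to SDC1 and CD74. The 42 include 2 alternatives with 3 antigens in place of 2: CD28 joined at 1.09 with the stricter filter on genes and mitochondrial UMIs per cell, and CD38 at -1.12 with the length median subtracted. Without a minimum level 2 antigens, SLAMF7 and CD74, differed in HS-5 cells, both at 0 UMIs in coculture. Without thinning 27 pairs exceeded independence in place of 16, and another random seed gave 21. Of 252 recomputed values of single antigens 214 stayed within the counting interval, 35 moved out of it and 3 changed sign. Without thinning the log2 ratio of the share of positive MM.1S cells became -0.87 for CD28 and -0.86 for CD47, as the coculture cells were shallower. With the median of the length group subtracted, chosen after seeing the data, CD59 in HS-5 was -0.075. SDC1 in MM.1S ranged from 1.30 to 2.09 and CD74 from -2.02 to -1.07 over 15 alternatives. No paired analysis was possible because each condition is 1 library, and for the same reason no replicate could be left out. At 2.26 CPM for 3 counts, MM.1S coculture cells limit what can be said of SLAMF7 and LAMP5.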

Other observations

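The 109 mixed cells of the coculture, whose line-gene UMIs were split between MM.1S and HS-5, entered no comparison. They had a median of 886 UMIs per cell. SDC1 was 96.4 CPM in them (16 UMIs), CD47 482 CPM (80 UMIs) and CD59 506 CPM (84 UMIs). CD38 had 4 UMIs, CD28 2 and CD74 3, and TNFRSF17 had 0, which allows up to 22.2 CPM by the exact Poisson interval.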
